A study of Mus musculus with 4 samples.

Results

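Glutathione S-transferases are enzymes that join the tripeptide glutathione to electrophilic compounds, and the levels of 10 of their genes were followed in 3T3L1 preadipocytes treated with Nutlin-3a. The 10 genes were chosen by family membership with earlier results of these data known, and the rule that picks them uses no measured value. They are Gsta4 of the alpha class, Gstm1, Gstm2 and Gstm5 of the mu class, Gstp1 of the pi class, Gsto1 of the omega class, Gstt1 and Gstt2 of the theta class, Gstz1 of the zeta class and the membrane-bound Mgst1. All 10 were listed among the 16709 gene symbols of the deposited table, and all 10 passed the filter on low values, a mean of at least 1 FPKM over both groups with a value above 0 in each. FPKM divides the fragments of a transcript by its length and by the mapped total, so it can be compared between genes of different length.

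3T3L1 is a mouse fibroblast-like line that can form adipocytes, and here the cells were grown in serum-containing medium as preadipocytes. The Nutlin-3a group received 25 µM of the compound for 24 h, and the DMSO group received an equivalent amount of the solvent in parallel. Nutlin-3a occupies the pocket of MDM2 that binds p53, and the comparison asks which transcripts differ once p53 is released. The labels name 4 libraries, 2 biological replicates for each treatment, and for each transcript the deposited table held a single FPKM value per treatment. No value below therefore carries a replicate error, no test was possible, and higher or lower describes the ratio of the authors' group values. Whether the replicates came from separate cultures is not given in the sources used here.

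Cytosolic glutathione S-transferases work as dimers and the microsomal ones as membrane proteins. Their conjugates leave the cell through export pumps and are trimmed to mercapturic acids. In mouse tissues many of these genes are regulated by the transcription factor NRF2 and by the aryl hydrocarbon receptor. Several members also have roles apart from conjugation, such as binding of stress kinases by the pi and mu classes, reduction of dehydroascorbate by the omega class and tyrosine breakdown by the zeta class.

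The columns were first compared for known p53 targets and for cell markers. Cdkn1a, the gene of the cell cycle inhibitor p21, was at 35.2 FPKM in DMSO and at 386 FPKM in Nutlin-3a. Mdm2, the gene of the compound's target, was listed at 773 FPKM in DMSO and at 0 in Nutlin-3a, where the 0 may be a failed estimate. Of 11 preadipocyte and fibroblast markers, 10 were compared, and Dlk1, a preadipocyte surface protein gene, was at 513 FPKM in DMSO and at 623 FPKM in Nutlin-3a. It was the only marker of the 10 with a log2 ratio above 0. Another 7 of the 10 were at least 2-fold lower in Nutlin-3a: the calcium-binding protein gene S100a4 (7580 FPKM in DMSO and 2250 FPKM in Nutlin-3a), the intermediate filament gene Vim (3169 and 1181 FPKM), the fibrillar collagen genes Col1a2 (817 and 263 FPKM), Col1a1 (193 and 63.9 FPKM) and Col3a1 (169.5 and 52.0 FPKM), the surface protein gene Ly6a (316 and 84.3 FPKM) and the growth factor receptor gene Pdgfra (30.0 and 9.14 FPKM). Thy1 (88.6 and 47.9 FPKM) and Pdgfrb (26.1 and 15.3 FPKM) were lower within the limit. Among all 10331 genes compared, 6.14% were at least 2-fold lower. The summed level of the list was 12903 FPKM in DMSO and 4590 FPKM in Nutlin-3a. The part of this shift in the glutathione S-transferase values was not tested. Epithelial and endothelial markers were low, with summed levels in Nutlin-3a and DMSO of 0.596 and 0.189 FPKM for the 5 of 6 epithelial genes that were listed and of 2.11 and 0.218 FPKM for 4 of 6 endothelial genes. Of 6 macrophage genes 5 were listed, with 10.6 and 7.94 FPKM in sum, and 2 passed the filter, namely Cd68, a lysosomal protein gene (6.52 and 2.91 FPKM, log2 ratio 0.94), and Cd14, a lipopolysaccharide co-receptor gene (3.03 and 4.48 FPKM). Ptprc, the gene of the leukocyte antigen CD45, was at 0.0618 and 0 FPKM. Of 6 mature adipocyte genes, with sums of 10.5 and 42.2 FPKM, only Fabp4 passed the filter, at 8.65 and 42.0 FPKM. In bulk RNA, fewer cells that express a gene and less of its RNA per cell cannot be told apart.

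Most glutathione S-transferase genes were modestly lower in Nutlin-3a, Gstt1 was strongly lower and Gsto1 was higher. A gene was called when its ratio, taken after 1 was added to both FPKM values, reached 2-fold in either direction; the added 1 shrinks the ratio of weakly expressed genes. By this limit 1 of 10 members was higher, against 6.62% of the 10331 genes compared, and 1 was lower, against 6.14%. The other 8 lay within 2-fold, as did 87.2% of all genes compared. Of the 10 members, 8 had a log2 ratio below 0, a direction that 45.2% of all genes compared had. The median log2 ratio of the members was -0.46 and that of all genes was 0.07, with quartiles at -0.33 and 0.44. These shares describe the table's values and are not a test. Below, a pair of levels joined by "against" gives Nutlin-3a first and DMSO second. Log2 ratios include the added 1, whereas a fold given beside levels is the plain ratio of the FPKM values.

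Summed over the 10 genes, the level was 1368 FPKM in DMSO and 1124 FPKM in Nutlin-3a, or 0.14% and 0.116% of all FPKM. Without Gsto1 the sums were 1263 and 887 FPKM. The pi class held 26.6% of the sum in Nutlin-3a and 32.1% in DMSO, the microsomal class 17.9% and 21.7%, and the mu class 18.8% and 21.7%. The omega class moved the other way, from 7.69% in DMSO to 21.0% in Nutlin-3a. The alpha class held a like share in both groups, 14.6% in Nutlin-3a and 15.0% in DMSO.

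**Figure D1:**
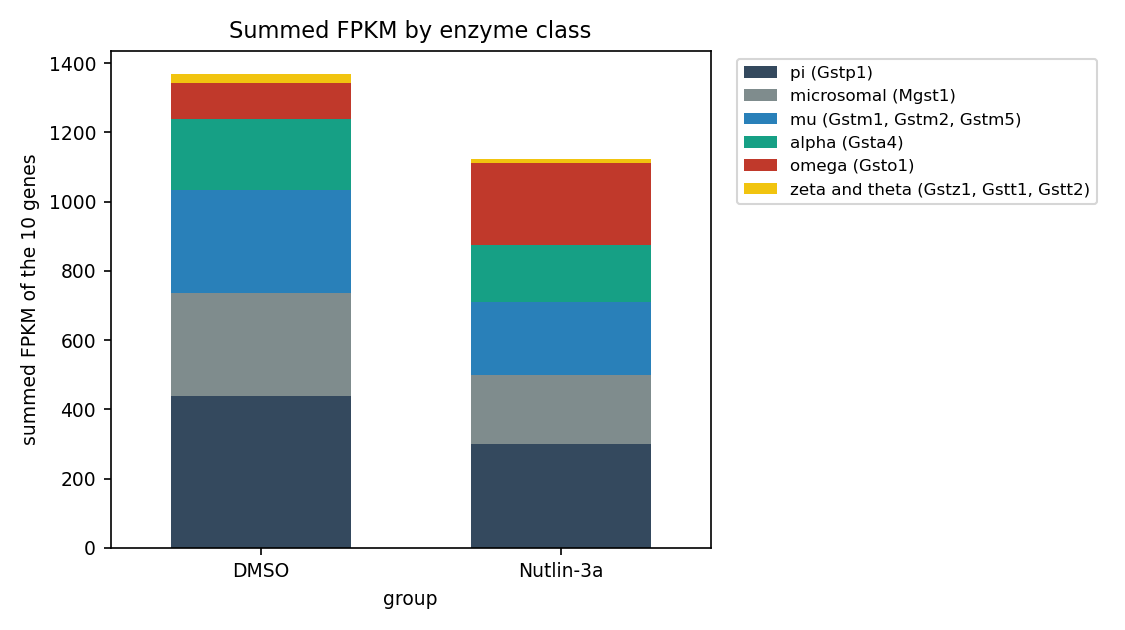
Summed FPKM of the 10 genes (y axis, from 0) in each group (x axis), stacked by enzyme class; each bar is the authors' group value, with no replicate error. The whole bar is 1368 FPKM in DMSO and 1124 FPKM in Nutlin-3a, while the omega segment is 105 and 236 FPKM.

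Gsto1, the omega class enzyme, uses a cysteine in its active site and carries out glutathione-dependent reductions of dehydroascorbate and methylated arsenic compounds. It had 105 FPKM in DMSO and 236 FPKM in Nutlin-3a, a 2.25-fold higher value with a log2 ratio of 1.16. This was the member furthest above the median of all genes, and its ratio was number 501 from the top of 10331 genes. In the order of the 10 levels, Gsto1 was at place 5 in DMSO and at place 2 in Nutlin-3a. In DMSO the level of Gstp1 was 4.17 times that of Gsto1, and in Nutlin-3a it was 1.26 times. Gsto2, the other omega gene, lies next to it on chromosome 19 and had 9.01 against 7.69 FPKM, a log2 ratio of 0.20. The coding sequences of Gsto1 and Gsto2 are 67.0% identical, and Gsto1 shares none of its 1133 windows of 50 bases with transcripts of another gene. The listed span of Gsto1 runs from 47854989 to 47864788 on chromosome 19 (mm10) and reaches over no other reference gene.

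Promoter sequences from RefSeq (GRCm38.p6) were found for 8 of the 10 members, with no entry used for Gsta4 and Gstt2. The 250 bases before the start site are shown for the called genes, Gsto1 and Gstt1, and for the most abundant members in DMSO, Gstp1 and Mgst1, because these carry the contrast within the family. Capitals mark each match, on either strand, to TGANNNNGC, a wide form of the antioxidant response element core that NRF2 binds. Gsto1 lies at chr19:47854723-47854972 on the plus strand and Gstp1 at chr19:4037913-4038162 on the minus strand. Mgst1 lies at chr6:138140277-138140526 on the plus strand and Gstt1 at chr10:75797732-75797981 on the minus strand. All 4 are written 5′ to 3′ along the gene. The Gstt1 stretch precedes the start site of the RefSeq table, which lies inside the listed span ending at 75798584, so it does not precede the listed 5′ end. Mgst1 has a second start site in that table, whose 250 bases (chr6:138141337-138141586) hold no match to TGANNNNGC and are not shown.
Gsto1: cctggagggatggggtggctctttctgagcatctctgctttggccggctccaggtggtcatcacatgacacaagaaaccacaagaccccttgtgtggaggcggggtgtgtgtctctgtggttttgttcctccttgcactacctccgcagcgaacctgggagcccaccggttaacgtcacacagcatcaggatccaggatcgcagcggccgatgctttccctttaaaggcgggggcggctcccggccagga
Gstp1: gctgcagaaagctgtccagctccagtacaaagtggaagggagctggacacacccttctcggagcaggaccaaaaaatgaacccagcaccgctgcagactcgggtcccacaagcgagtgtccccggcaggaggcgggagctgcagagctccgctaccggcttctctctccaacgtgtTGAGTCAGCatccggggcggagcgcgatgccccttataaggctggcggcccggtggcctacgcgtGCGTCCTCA
Mgst1: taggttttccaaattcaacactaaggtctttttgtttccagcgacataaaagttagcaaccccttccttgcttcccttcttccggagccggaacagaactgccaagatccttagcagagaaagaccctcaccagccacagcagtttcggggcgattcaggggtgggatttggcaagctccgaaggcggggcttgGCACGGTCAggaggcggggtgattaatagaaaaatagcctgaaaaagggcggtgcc
Gstt1: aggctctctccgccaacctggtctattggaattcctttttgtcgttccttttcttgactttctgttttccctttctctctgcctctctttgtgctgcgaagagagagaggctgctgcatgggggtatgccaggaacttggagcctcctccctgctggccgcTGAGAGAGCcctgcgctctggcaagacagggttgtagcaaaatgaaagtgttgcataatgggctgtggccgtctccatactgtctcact

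Windows of 300 bases, with 50 bases after the start site included, were searched on both strands. The 8 members have 11 such windows, since several have more than 1 start site. TGANNNNGC was present in 6 of the 11, in Gstm5, Gstp1, Gstt1, Gstz1 and Mgst1, and in 41.3% of 32851 windows of all genes. The narrower TGACNNNGC, which the wide form contains, was present in 2 of the 11, in Gstm5 and Mgst1, and in 12.4% of all windows. The xenobiotic response element core GCGTG, bound by the aryl hydrocarbon receptor, was present in 4 of the 11, in Gstm1, Gstm5 and Gstp1, and in 32.4% of all windows. The Gstm1 windows overlap and hold the same GCGTG site, so that site was counted in both. In Gstm5 a match to GCGTG lies inside the match to TGACNNNGC. The p53 half-site was in 0 of the 11 and in 8.36% of all windows. In Gsto1, the member called higher, and in Gstm2, which was lower within the limit, none of these 4 patterns was found in the window. Gstm1, also lower within the limit, had no match to TGANNNNGC in either window. The lack of this match was thus not particular to the higher member. A match describes letters and not a bound site, and the lack of one describes these windows alone.

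Gstp1, the pi class enzyme and a known partner of the stress kinase JNK, was the most abundant member in both groups. It had 439 FPKM in DMSO and 299 FPKM in Nutlin-3a, a 1.47-fold lower value with a log2 ratio of -0.55. It ranked 345 of all symbols by level in Nutlin-3a and 272 in DMSO. Its neighbour Gstp2 had 2.12 against 4.01 FPKM, a log2 ratio of -0.69. The coding sequences of Gstp1 and Gstp2 are 98.1% identical, and 62.3% of the 50-base windows of the Gstp1 transcript also occur in Gstp2 or in the pseudogene Gstp-ps. How the counting divided such fragments is not given in the sources used here, so the split between both genes is uncertain. Their sum was 443 FPKM in DMSO and 301 FPKM in Nutlin-3a, 1.47-fold lower. Gstp1 lies on chromosome 19 from 4035411 to 4037912 (mm10).

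The 3 mu class members lay lower to different degrees. Gstm1, a conjugating enzyme whose protein also binds the stress kinase ASK1, had 100 FPKM in DMSO and 54.2 FPKM in Nutlin-3a. That was a 1.84-fold lower value with a log2 ratio of -0.87, the second lowest ratio among the members. Gstm2 had 115 against 143 FPKM, a log2 ratio of -0.30, and Gstm5 had 41.9 against 54.2 FPKM, a log2 ratio of -0.36. The level of Gstm1 was 0.701 of that of Gstm2 in DMSO and 0.47 of it in Nutlin-3a. The coding sequences of Gstm1 and Gstm2 are 86.0% identical, whereas Gstm5 is 69.8% identical to Gstm1 and 71.0% to Gstm2. Of the Gstm1 windows 23.1% recur in transcripts of other genes, mainly the pseudogene Gstm2-ps1 and Gstm3, and of the Gstm2 windows 9.36% do. These values are uncertain to that extent.

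The mu genes form a cluster on chromosome 3 (mm10), in which Gstm5 is listed from 107877230 to 107898685, Gstm2 from 107981702 to 107986436 and Gstm1 from 108012250 to 108017973. The span listed for Gstm5 is 21456 bases long where the reference gene has 2832, and it takes in Eps8l3 and the long noncoding RNA 4933431E20Rik. A listed span can be that of a joint locus, since Gstz1 and Pomt2 carry the same one, so it does not give the length of the Gstm5 transcript. Of the 50-base windows of Gstm5, 14.4% recur in 4933431E20Rik. How such fragments were divided is not given, so the value is uncertain. The other mu genes of the cluster were close to 0. Gstm7 had 0.512 against 1.41 FPKM, Gstm4 had 0.485 against 0.0343 FPKM and Gstm3 had 0.0448 against 0.0331 FPKM, all under the minimum mean. Gstm6 was listed at 0.176 FPKM in DMSO and at 0 in Nutlin-3a.

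Gsta4, an alpha class enzyme with high activity towards 4-hydroxynonenal, a product of lipid peroxidation, had 205 FPKM in DMSO and 163 FPKM in Nutlin-3a. The value was 1.26-fold lower, with a log2 ratio of -0.33. Gsta4 lies on chromosome 9 from 78191966 to 78209349 (mm10), and no 50-base window of its transcript recurs in another gene. The alpha genes Gsta2 (1.39 against 0.169 FPKM) and Gsta3 (0.59 against 0.108 FPKM) were under the minimum mean. Values near 0 are uncertain here, since 466 symbols were listed at 0 in Nutlin-3a and 2346 in DMSO.

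Mgst1, a trimeric enzyme of the endoplasmic reticulum and the outer mitochondrial membrane that also reduces lipid hydroperoxides, was the second most abundant member in DMSO. It had 297 FPKM in DMSO and 201 FPKM in Nutlin-3a, a 1.48-fold lower value with a log2 ratio of -0.56. Mgst1 lies on chromosome 6 from 138140537 to 138156752 (mm10) and shares no 50-base window with another gene. Mgst1 belongs to the MAPEG family of membrane proteins, of which 5 more were compared. Mgst3 had 95.0 against 161 FPKM, a log2 ratio of -0.76, and Mgst2 had 8.99 against 23.0 FPKM, which passed the limit with a log2 ratio of -1.27. Ltc4s, the leukotriene C4 synthase gene, had 5.86 against 29.9 FPKM, and Alox5ap, the gene of the protein that presents arachidonic acid to 5-lipoxygenase, had 0.562 against 4.87 FPKM, both also past the limit. Ptges, a prostaglandin E synthase gene of the same family, went the other way within the limit, with 49.0 against 30.6 FPKM.

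Gstt1 was the member with the largest ratio between groups, while in FPKM its difference was smaller than those of the abundant members Gstp1 and Gsto1. This theta class enzyme conjugates small halogenated compounds such as dichloromethane. It had 7.41 FPKM in DMSO and 1.19 FPKM in Nutlin-3a, a 6.25-fold lower value. Its log2 ratio, shrunk by the added 1 at these levels, was -1.94. That ratio was number 66 from the lowest of 10331 genes compared. Both levels are low, at rank 10160 of 16709 symbols in Nutlin-3a and 5642 in DMSO, and their precision is unknown without fragment counts. Gstt2, the other theta member, had 1.22 against 0.919 FPKM, a log2 ratio of 0.21. The levels of Gstt1 and Gstt2 in Nutlin-3a thus lay within 0.0310 FPKM of each other, while in DMSO Gstt1 was 8.06 times as high.

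The theta genes form a cluster on chromosome 10 (mm10), with Gstt1 from 75783813 to 75798584, Gstt2 from 75831845 to 75834881 and Gstt4 between them. Gstt3, at the same cluster, had 7.11 against 12.0 FPKM, a log2 ratio of -0.68, and Gstt4 had 0.34 against 0.122 FPKM and was under the minimum mean. Near the cluster, Ddt, the D-dopachrome tautomerase gene, had 81.2 against 91.3 FPKM, and Mif, a cytokine gene with tautomerase activity, had 1679 against 2422 FPKM. Ddt and Mif were chosen for their position after the theta values had been seen. The coding sequence of Gstt1 is 70.9% identical to that of Gstt3 and 56.5% to that of Gstt2, and Gstt1 shares no 50-base window with another gene.

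Gstz1, the zeta class enzyme, is the maleylacetoacetate isomerase of tyrosine breakdown. It had 16.1 FPKM in DMSO and 10.0 FPKM in Nutlin-3a, a 1.61-fold lower value with a log2 ratio of -0.64. It was the only member with more than 1 listed transcript. The main one had 10.0 against 15.3 FPKM, and the other had 0.000464 against 0.81 FPKM. The listed span, from 87106866 to 87164723 on chromosome 12 (mm10), is also that of Pomt2, a protein mannosyltransferase gene, and is thus the span of a joint locus. Of the 50-base windows of Gstz1, 4.85% recur in Pomt2. How such fragments were divided is not given, so the value is uncertain. Pomt2 itself had 5.62 against 2.95 FPKM. Fah, which acts right after Gstz1 in tyrosine breakdown, had 38.1 against 56.3 FPKM, a log2 ratio of -0.55. Of the earlier enzymes, Hgd (0.371 against 0.0907 FPKM) was under the minimum mean, and Hpd and Tat were listed at 0 in DMSO.

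**Figure D2:**
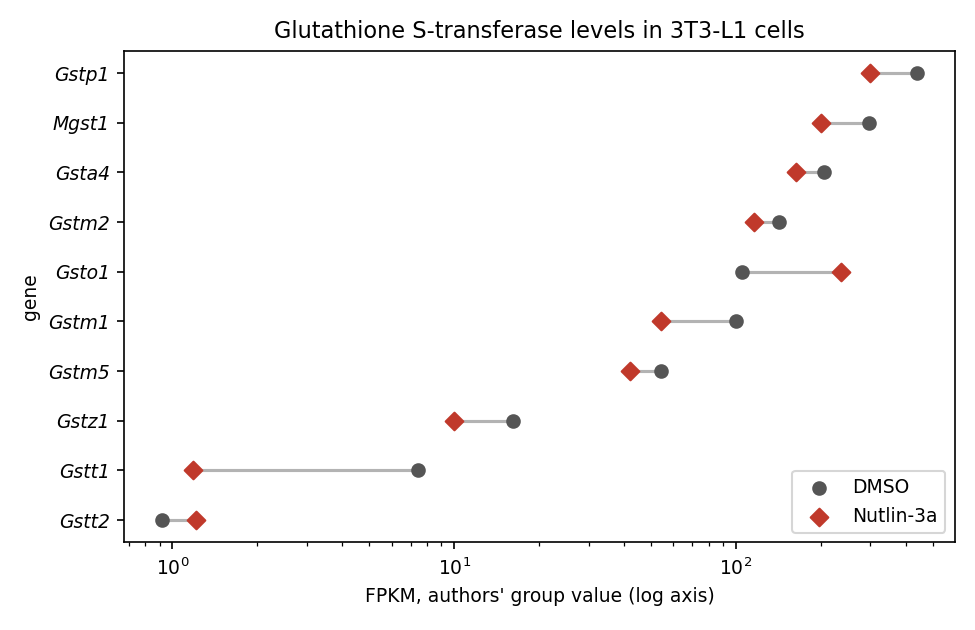
FPKM (x axis, log scale) of each of the 10 genes (y axis, ordered by the DMSO value), with a circle for DMSO and a diamond for Nutlin-3a; each point is the authors' group value and has no error. The diamond lies to the left of the circle in 8 genes and to the right in Gsto1 and Gstt2.

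Base composition moved with the ratios of all genes. Across 9935 genes, which are not independent replicates, the log2 ratio had a Spearman rho of -0.23 with the GC content of the transcript. The 10 members had a GC content of 45.3% (Mgst1) to 55.8% (Gstp1), around the median of 50.4% of all genes. With the trend over GC content removed, the log2 ratio of Gstp1 was -0.37, of Gstm1 -0.75, of Gstt1 -1.78, of Mgst1 -0.68 and of Gsto1 1.22.

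**Figure D3:**
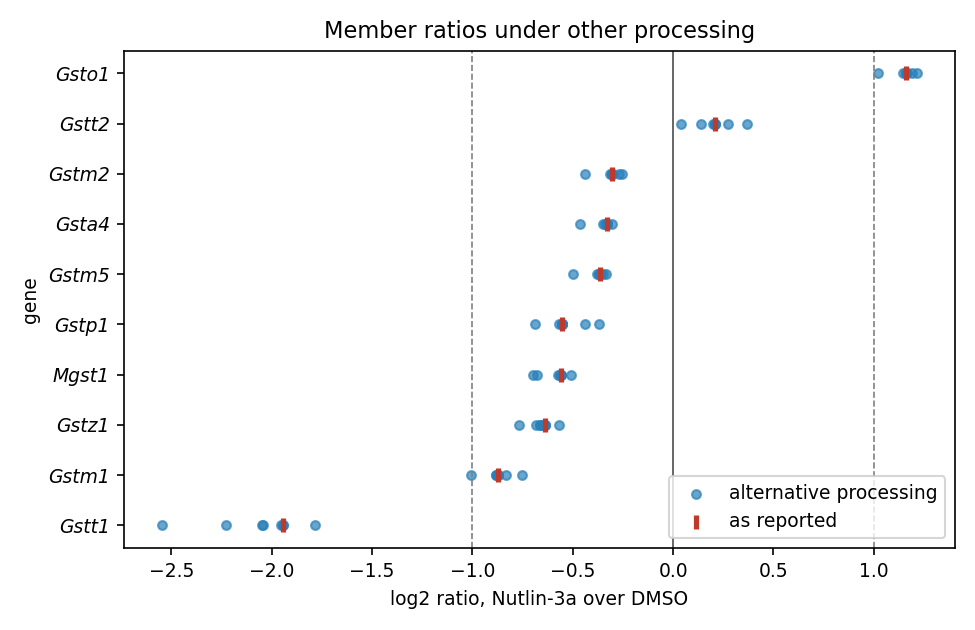
Log2 ratio of Nutlin-3a over DMSO (x axis) of each of the 10 genes (y axis), with a red bar for the value as reported and a blue point for each other choice of pseudocount, filter, scaling, GC correction and transcript; dashed lines mark 2-fold. Gsto1 lies between 1.02 and 1.22, Gstt1 between -2.55 and -1.78, and Gstm1 between -1.01 and -0.75.

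Among the remaining glutathione transferases on a list of 17 genes, 15 were listed and 6 were compared. Of these 6, 1 was at least 2-fold lower (Mgst2), none was higher by the limit, and 5 had a log2 ratio below 0. Over all genes compared, 6.14% were lower by the limit and 45.2% had a log2 ratio below 0. Gstk1, a mitochondrial and peroxisomal enzyme, had 3.57 against 6.01 FPKM. Joined with the 10 members, 16 glutathione transferases were compared, of which 13 had a log2 ratio below 0, with a median of -0.59. Of the 9 listed under the filter, 5 had the higher value in Nutlin-3a.

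Genes that make and recycle glutathione mostly lay higher in Nutlin-3a. Of 12 such genes 10 were compared, 2 were at least 2-fold higher, none was lower by the limit and 8 had a log2 ratio above 0, with a median of 0.74. Over all genes compared, 6.62% were higher by the limit and 45.2% had a log2 ratio below 0, as did 2 of these 10. Gss, glutathione synthetase, had 50.1 against 19.5 FPKM, a log2 ratio of 1.32. Gclc, the catalytic subunit of glutamate-cysteine ligase, the first step of the synthesis, had 7.46 against 1.35 FPKM, a log2 ratio of 1.85. Its DMSO level was low, at rank 9612 of 16709 symbols. With the added 1, the modifier subunit Gclm lay within the limit at 9.63 against 4.67 FPKM, a log2 ratio of 0.91. Cth, which makes cysteine from cystathionine, lay just inside it (15.3 against 7.20 FPKM, log2 ratio 0.99). Pgd, an enzyme that makes NADPH, had 136 against 75.8 FPKM, and Slc3a2, the heavy chain of the cystine transporter, 134 against 85.4 FPKM. Gsr, glutathione reductase, had 3.40 against 4.36 FPKM and Idh1, another source of NADPH, 76.6 against 110 FPKM, while Me1, the cytosolic malic enzyme gene, had 17.3 against 13.8 FPKM.

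Genes of glutathione breakdown and mercapturate formation, taken as 1 list, were mostly lower within the limit. Of 17 such genes 11 were compared, and 2 were at least 2-fold lower. None was higher by the limit and 9 had a log2 ratio below 0, with a median of -0.50. The shares over all genes compared were 6.14% lower by the limit and 45.2% with a log2 ratio below 0. The 2 genes past the limit were Chac1, a glutathione-degrading enzyme gene also controlled by the integrated stress response (1.53 against 5.12 FPKM), and Anpep, a membrane aminopeptidase gene (1.91 against 4.91 FPKM). Cndp2, a cytosolic dipeptidase gene, had 95.3 against 122 FPKM, and Lap3, a leucine aminopeptidase gene, had 45.9 against 28.2 FPKM. The aminoacylase genes Acy1 and Acy3 had 12.0 against 20.3 FPKM and 9.72 against 14.2 FPKM. Ggt7, a gamma-glutamyltransferase relative, had 1.41 against 3.11 FPKM. None of 4 exporter genes compared passed the limit, with Abcc1, a main pump for glutathione conjugates, at 5.20 against 6.37 FPKM and Abcg2 at 21.1 against 36.0 FPKM. Abcc5 had 15.8 against 15.7 FPKM and Abcc4 had 2.17 against 1.57 FPKM. These 4 exporters had a median log2 ratio of -0.12.

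Of 10 transcription factor genes compared, 1 was at least 2-fold higher and 1 at least 2-fold lower, with a median of -0.03. The shares over all genes compared were 6.62% higher and 6.14% lower. Mafk, a small MAF partner of NRF2, had 9.66 against 2.16 FPKM, and Nfe2l1, a relative of NRF2, had 15.3 against 35.1 FPKM. Nfe2l2, the NRF2 gene, had 50.4 against 33.0 FPKM and Keap1, its inhibitor, 9.45 against 16.3 FPKM, both within the limit. Trp53, the p53 gene, had 63.1 against 54.5 FPKM, and Mafg, another small MAF gene, 11.8 against 12.9 FPKM. Ahr, the aryl hydrocarbon receptor gene, had 2.49 against 2.36 FPKM. Of the stress kinase genes whose proteins bind glutathione S-transferases, Mapk8, the gene of JNK1, had 2.71 against 1.45 FPKM and Mapk9, the gene of JNK2, 11.6 against 6.76 FPKM. Traf2, an adaptor gene of the same pathway, had 13.2 against 20.1 FPKM, and Map3k5, the gene of ASK1, was under the minimum mean at 0.618 against 0.97 FPKM.

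Other enzymes that conjugate or reduce foreign compounds went both ways, with 1 of 14 compared higher by the limit, 2 lower and a median of 0.03. Over all genes compared, 6.62% were higher and 6.14% lower by the limit. Ephx1, the microsomal epoxide hydrolase gene, had 117 against 38.0 FPKM. Ephx2, the soluble epoxide hydrolase gene, had 3.19 against 15.3 FPKM. Ugt1a6a, a glucuronosyltransferase gene that shares exons with its cluster and is therefore uncertain, had 1.70 against 9.06 FPKM. Ugt1a7c, listed at the same span and under the minimum mean, went the other way at 1.69 against 0.201 FPKM. Nqo1, a quinone reductase gene and NRF2 target, lay within the limit at 19.0 against 9.96 FPKM. The aldo-keto reductase genes Akr1b3, Akr1b8 and Akr7a5 had 258 against 211, 83.1 against 103 and 66.6 against 63.5 FPKM, and Cbr1, a carbonyl reductase gene, had 69.9 against 69.8 FPKM.

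**Figure D4:**
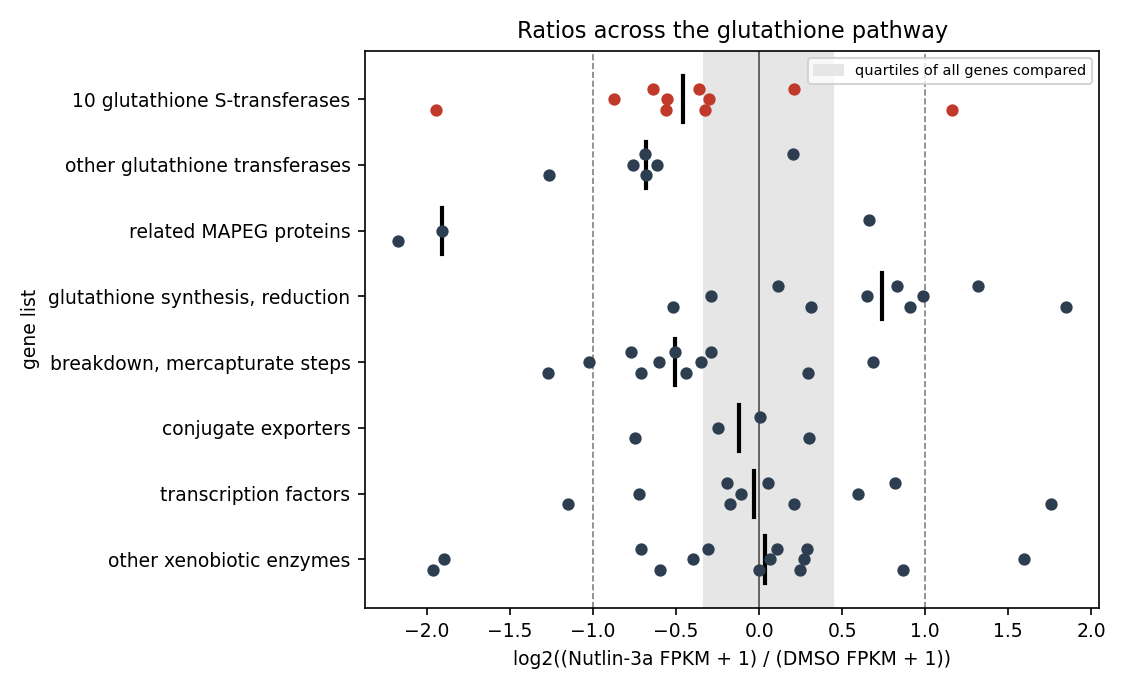
Log2 ratio of Nutlin-3a over DMSO on the log2(FPKM + 1) scale (x axis) for each gene compared, by list (y axis); points are genes, short vertical bars are list medians, dashed lines mark 2-fold, and the grey band spans the quartiles of all 10331 genes. The transferase medians are -0.46 and -0.68, while the synthesis list has its median at 0.74.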

How the data were processed

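Cells of the line 3T3L1 were lysed in TRIzol for total RNA, and libraries followed Illumina's standard workflow, per the labels' protocols. The submitters' processing notes name TopHat2 2.0.11 and mm10. Quantifier, annotation and the way replicates were combined: not given in the sources used here. In the authors' deposited table each transcript had 1 FPKM value per group, per the file headers. NUT in a column name was taken to mean Nutlin-3a. DSM was taken to mean DMSO, as no other group remains. Of its lines, 24746 held transcripts and 4294 were empty. The depth per library is unknown, so no interval or floor is given.

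FPKM was summed per symbol and log2((Nutlin-3a + 1) / (DMSO + 1)) was taken. The intended limma fit needs a value per library and was not run, so calls use the 2-fold limit. Starts were converted from 0-based to 1-based. The gene lists and members were chosen with earlier results of these data known. All members and other glutathione transferases were named or counted, and from each further list the genes past the limit and up to 4 others with the highest mean FPKM. Gclm, Cth, Gsr, Ggt7, Ahr and Nqo1 were added for their roles, and Cdkn1a, Mdm2, Pomt2, Ddt and Mif as context. Ugt1a7c was added for the span it shares with Ugt1a6a. All of these were added with values seen. GC content, 50-base windows and coding identity came from the longest protein-coding transcript per gene in GENCODE M21, and alignments used Biopython 1.88. Alternatives covered pseudocounts, filters, scalings, GC content (lowess, statsmodels 0.14.6), transcripts and the limit.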

Additional observations from a re-analysis of the deposited data

How the results depend on the processing

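No paired analysis was possible because the table holds 1 value per transcript and group, and for the same reason no replicate could be left out. Alternatives were pseudocounts of 0.1 and 0.5, no filter, a mean FPKM of at least 5, upper-quartile, quantile and median-ratio scaling, a correction for GC content and the transcript with the highest mean. Each of the 10 members kept its direction under every one of these in which it could be compared. For most of these settings that was fixed in advance, since a filter leaves a ratio as it is and a pseudocount cannot change its direction. Only the scalings, the GC correction and, for Gstz1, the choice of transcript could have changed a direction. Gsto1 ranged from 1.02 to 1.22 and stayed above the limit, and Gstt1 ranged from -2.55 to -1.78 and stayed below it. Gstt2 ranged from 0.04 to 0.37. Both theta genes drop out with a mean FPKM of at least 5, which leaves 8 members and 0 lower, where 466 of 6888 genes compared were lower. With median-ratio scaling, which moves the median of all genes from 0.07 to -0.05, Gstm1 passed the limit at -1.01, and 2 members were lower. In that setting 813 of 10327 genes compared were lower. With a 1.5-fold limit 3 members were lower, and of the 10331 genes compared 1839 were higher and 1566 lower, against 684 and 634 at 2-fold. With a mean FPKM of at least 5 the count of all genes higher was 391 of 6888. Over the lists of the glutathione pathway, 13 of 58 genes compared were higher and 19 lower with the 1.5-fold limit, against 4 and 8 at 2-fold. With a mean FPKM of at least 5, 5 of 38 were lower. Gstp1 and Gstp2 summed, an alternative chosen after seeing the data, gave -0.56. Differences in weakly expressed genes such as Gstt1 and Gstt2 are limited by an unknown depth.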
